A study of Mus musculus with 2 samples.

Results

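The killer lectin-like receptor (Klr) genes were examined in DNase-seq libraries of mouse thymus. Protein-coding genes of the GENCODE annotation of mm10 were taken when their symbol began with Klra, Klrb, Klrc, Klrd, Klre, Klrg, Klrh, Klri or Klrk. This gave 26 of 21755 protein-coding genes on the autosomes and X. They comprised 11 Klra genes, 5 Klrb1 genes, a group of 8 made up of Klrc1, Klrc2, Klrc3, Klrd1, Klre1, Klri1, Klri2 and Klrk1, and the 2 Klrg genes. All but the Klrg genes, 24 in number, lay in 1 cluster of 2.64 Mb on chromosome 6 (chr6:128609227-131247362, mm10), the natural killer gene complex. Klrg1 and Klrg2 lay elsewhere on the same chromosome. No Klrh gene was among the 26.

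Klr genes encode C-type lectin-like proteins of the cell surface, which natural killer (NK) cells and some T cells use to read the state of other cells. The Klra genes encode the Ly49 receptors, which bind classical MHC class I molecules. CD94, encoded by Klrd1, pairs with NKG2 proteins of the Klrc genes to bind the non-classical molecule Qa-1. NKG2D, encoded by Klrk1, binds stress-induced ligands, and Klrb1 receptors bind proteins of the neighbouring Clec2 genes. Inhibitory members recruit phosphatases, while activating members signal through adaptors such as DAP12 (Tyrobp) and DAP10 (Hcst). Most cells of the thymus are developing T cells, and NK cells are few there.

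Both mice were females of the strain B6CASTF1/J aged 36 days, first-generation hybrids of C57BL/6J and CAST/EiJ, with 1 library each and no treatment. DNase I cuts DNA that is not tightly wrapped around nucleosomes, so a peak marks an accessible site. The tissue was used whole, so a site open in few cells and a site weakly open in many cannot be told apart. Reads of both parental genomes were placed on mm10, which is the C57BL/6J genome, and the number and sequence of Klra genes are known to differ between mouse strains.

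Mouse 1 had 59484 peaks and mouse 2 had 72913 in the shorter, more stringent of the 2 deposited lists. The longer lists held 93107 and 117361 peaks. Signal is the deposited height of a peak on a scale that the labels do not name, with medians of 1.23 and 1.45. Every signal in the longer lists was a whole multiple of 1 step within 0.1 steps, 0.00638 in mouse 1 and 0.00504 in mouse 2, and the weakest peak of each was 10 steps high. The tissue label was checked against markers: all 14 T-cell and thymocyte markers had a promoter peak in both mice, as did 9 of 15 NK and innate lymphoid cell markers, 5 of 10 B-cell markers and 1 of 12 myeloid and dendritic cell markers, beside 56.6% of all protein-coding genes. The part of the NK, B and myeloid cells in the results below was not tested.

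The sequences of the accessible sites on which the results turn are shown first, read from the GRCm38 reference. Each is the stretch covered by the peaks of both mice, on the plus strand. Capitals mark bases called as footprint, a short protected stretch within an accessible site, in both mice. No such base was found at Klrd1, where the capitals mark a match to the RUNX motif TGTGGT instead.
Klrd1 start site, chr6:129591637-129591796: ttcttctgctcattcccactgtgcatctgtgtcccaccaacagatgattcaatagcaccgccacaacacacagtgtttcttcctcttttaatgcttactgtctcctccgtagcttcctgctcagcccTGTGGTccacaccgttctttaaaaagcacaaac
Klrb1f internal start site, chr6:129049193-129049380: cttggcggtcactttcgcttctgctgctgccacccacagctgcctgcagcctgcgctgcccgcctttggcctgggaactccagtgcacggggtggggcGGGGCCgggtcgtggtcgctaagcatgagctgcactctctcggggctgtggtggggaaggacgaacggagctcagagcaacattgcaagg
Site between Clec2d and Cd69, chr6:129237961-129238120: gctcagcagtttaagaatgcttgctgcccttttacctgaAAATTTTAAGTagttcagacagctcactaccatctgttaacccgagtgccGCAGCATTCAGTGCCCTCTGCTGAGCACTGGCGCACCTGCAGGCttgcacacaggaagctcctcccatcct
Site between Klrb1c and Klrb1b, chr6:128803101-128803380: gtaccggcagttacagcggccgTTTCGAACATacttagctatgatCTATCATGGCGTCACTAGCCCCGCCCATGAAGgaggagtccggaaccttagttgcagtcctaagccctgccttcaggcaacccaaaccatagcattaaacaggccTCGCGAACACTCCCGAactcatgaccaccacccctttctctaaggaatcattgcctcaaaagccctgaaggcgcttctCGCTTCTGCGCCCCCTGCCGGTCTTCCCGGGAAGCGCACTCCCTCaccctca
The first pair are the only Klr start sites with a peak of the shorter list in both mice, and the second pair are the cluster sites with the highest mean signal of both mice. In the 160 bases at Klrd1, footprints covered 14 bases in mouse 1 and 23 in mouse 2, with 0 in common. At Klrb1f they covered 16 and 44 of 188 bases, with 6 in common. At the site between Clec2d and Cd69, 62 and 67 of 160 bases were covered and 55 were shared. At the site between Klrb1c and Klrb1b, 105 and 164 of 280 bases were covered and 103 were shared. Footprint bases thus coincided between the mice at the latter pair of sites and hardly or not at all at the Klr start sites. The Klr start sites also had lower peak signals, 0.696 and 0.343 at Klrd1 and 1.03 and 1.98 at Klrb1f, against 8.28 to 16.3 at the latter pair. The part of signal height in this difference was not tested.

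Few Klr start sites had a listed peak. A peak of the shorter list lay within 1 kb of a start site in both mice at 2 of 26 Klr genes, Klrd1 and Klrb1f, against 56.6% of all protein-coding genes. In mouse 1 alone these were also the only 2 (56.9% of all genes), and in mouse 2 Klrg2 was added, which made 3 (63.2% of all genes). The longer list gave the same count of 2 in both mice (60.9% of all genes). Runs of bases with a significant cut rate (FDR below 0.05) reached 3 start sites in both mice, those of Klrd1, Klrb1f and Klra1 (61.9% of all genes). Footprints lay within 1 kb of 2 start sites in both mice, again Klrd1 and Klrb1f (59.3% of all genes).

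**Figure D1:**
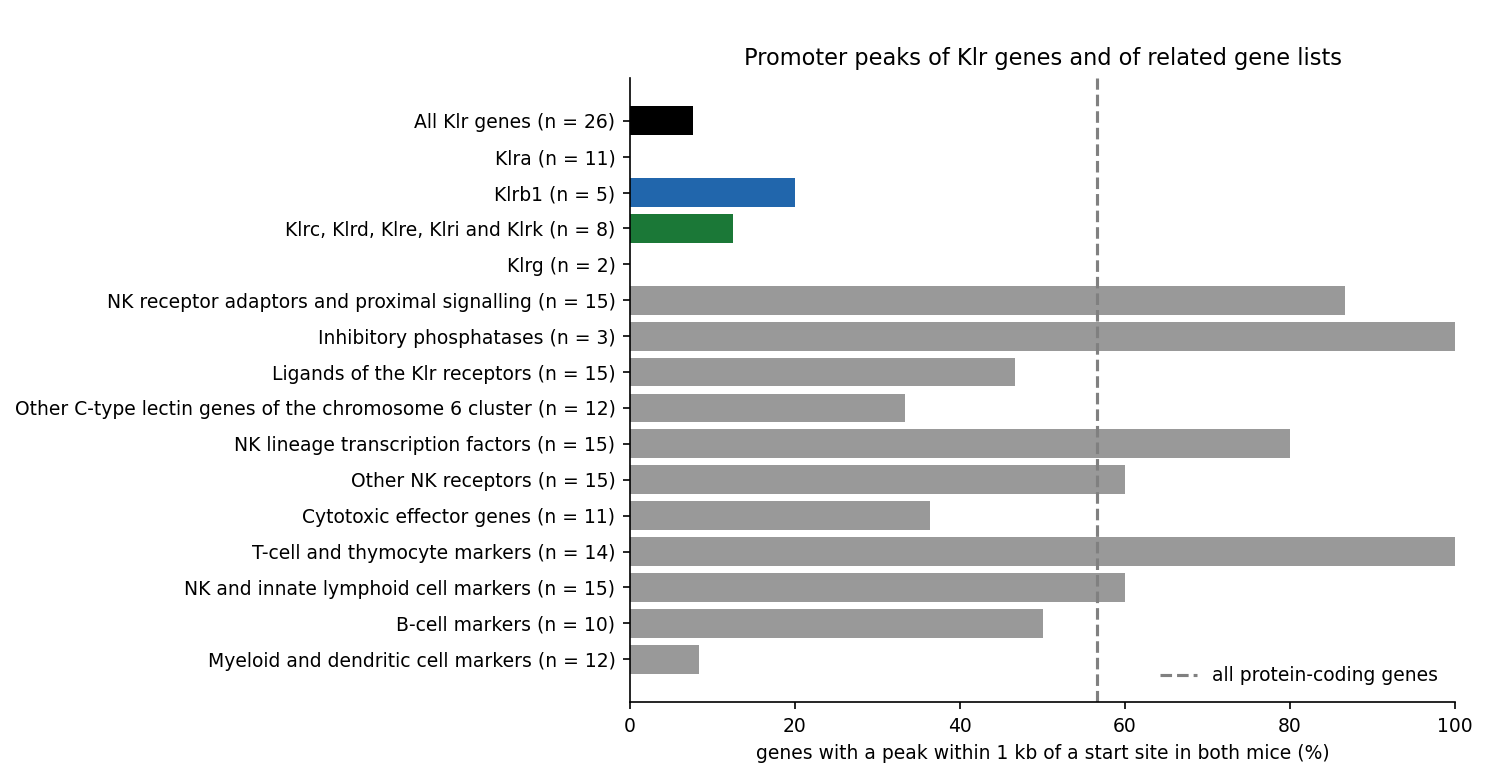
Percentage of genes with a peak of the shorter list within 1 kb of a start site in both mice, for the Klr genes, their subfamilies and related gene lists, n being the number of genes. The dashed line is the 56.6% of all protein-coding genes, and the Klra and Klrg genes stand at 0.

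Listed peaks in the wider surroundings were also sparse, but their number differed between the subfamilies. With a window that adds 10 kb to each end of the gene, 7 Klr genes had a peak of the shorter list in both mice (71.3% of all genes) and 13 had one of the longer list (77.0% of all genes). The 7 were Klrb1a, Klrb1c, Klrb1b, Klrb1f, Klre1, Klrd1 and Klrc1. In neither mouse was there a peak in the window of 16 Klr genes, 61.5% of them, while 22.5% of all genes had none. The median over the Klr genes was 0 peaks per 10 kb, beside 0.468 over all protein-coding genes. The windows of neighbours overlap, and the 17 peaks counted over members in mouse 1 were 14 distinct peaks, and the 21 in mouse 2 were 20. Listed peaks that overlap each other, such as a pair in the window of Klrb1c in mouse 2, count separately here.

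**Figure D2:**
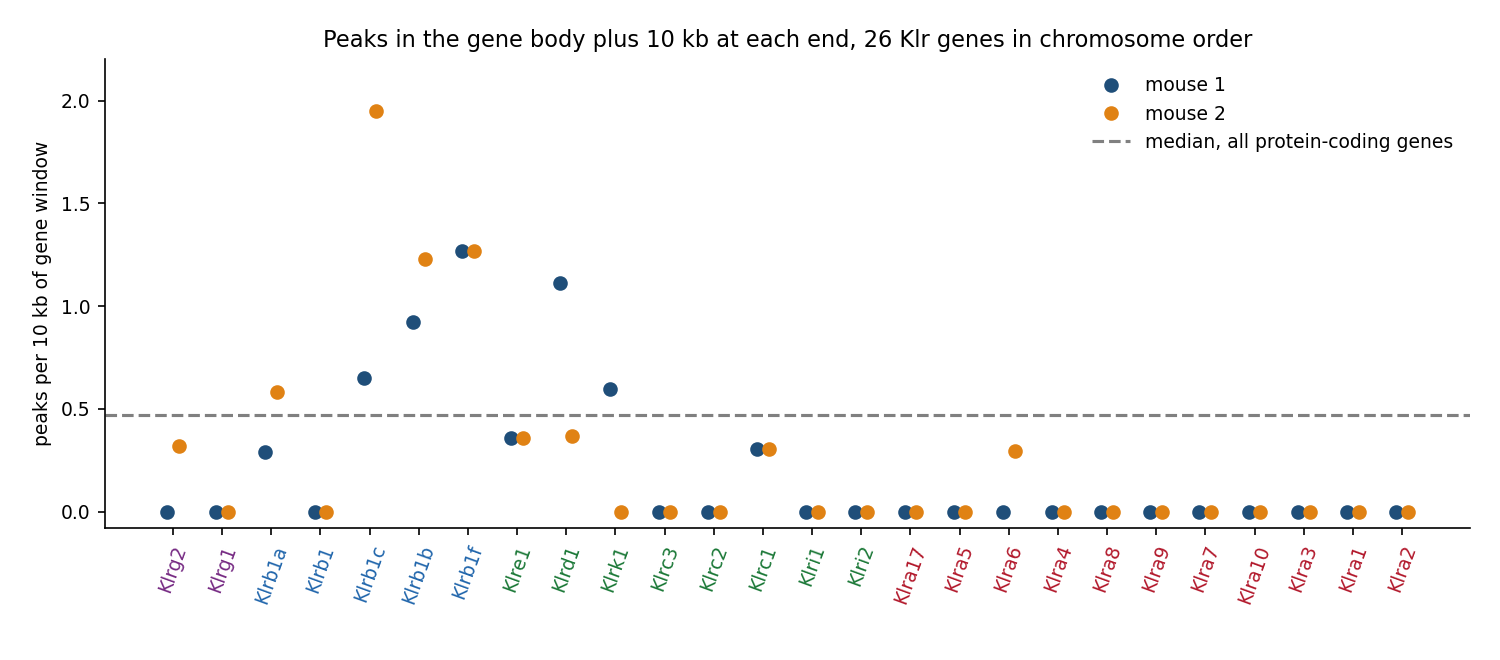
Peaks of the shorter list per 10 kb of window (the gene with 10 kb added at each end) for the 26 Klr genes in chromosome order, 1 point per mouse, with the median of all protein-coding genes, 0.468, as a dashed line. Klrb1c, Klrb1b and Klrb1f lie above the line in both mice, and every Klra gene other than Klra6 is at 0 in both.

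Distances to the nearest peak drew the same picture gene by gene. The median distance from a start site to the nearest peak was 41.1 kb in mouse 1 and 33.2 kb in mouse 2 over the Klr genes, and 0.0340 and 0 kb over all protein-coding genes. For the 5 Klrb1 genes the medians were 7.15 and 6.78 kb, for the group of Klrc, Klrd, Klre, Klri and Klrk genes 16.9 and 25.3 kb, and for the 11 Klra genes 449 and 155 kb. The Klra medians lie far apart since a single weak peak near Klra6, present in the shorter list of mouse 2 and not of mouse 1, breaks a long peak-free stretch.

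Klrd1, which encodes the shared CD94 chain of the NKG2 heterodimers, was the only Klr gene with a peak over its 5′ end in both mice. Its peak had a signal of 0.696 in mouse 1 (chr6:129591561-129591800) and 0.343 in mouse 2 (chr6:129591637-129591796). It was a weak peak in both, stronger than 24.3% of all peaks in mouse 1 and than 5.34% in mouse 2. In height it stood at 109 steps in mouse 1 and 68 in mouse 2. The lowest FDR of the cut rate there was 3.30e-12 and 5.09e-05, and 3 footprints touched the peak in each mouse. Mouse 1 had 2 further peaks between Klrd1 and Klrk1, with signals of 0.504 and 0.491, which mouse 2 lacked in the shorter list.

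The receptor chains that work beside CD94 showed less. Klrk1, which encodes NKG2D, had only a peak of the longer list near its start in mouse 1, 84 bp away, with a signal of 0.179 and a lowest FDR of 0.0111. In mouse 2 no significant cutting was found there. Klrc1, which encodes the inhibitory NKG2A, had no promoter peak, but a peak of the shorter list lay 1.53 kb from its start site in mouse 1 and 1.51 kb in mouse 2. Its signal was 0.485 and 0.559, and 3 footprints touched it in each mouse, so the mice were close to each other at this site.

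Klrc2 and Klrc3, which encode the activating NKG2C and the related NKG2E, had no peak of either list in their windows. Within 1 kb of their start sites, only 18.1% and 15.3% of 32-base words occur once in the reference genome, beside a median of 97.4% over 1112 protein-coding genes of chromosome 6. The RefSeq promoters of both genes, from 250 bases before to 50 after the start, were 75.1% identical after alignment. They share the following 110 bases (minus strand, GRCm38.p6), which lie at chr6:129660547-129660656 for Klrc2 and chr6:129643279-129643388 for Klrc3, shown since a short read from it matches both genes.
Klrc2 and Klrc3 shared stretch: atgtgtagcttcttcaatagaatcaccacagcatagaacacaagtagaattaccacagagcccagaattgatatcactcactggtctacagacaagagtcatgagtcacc
Around the start sites of Klrc1, 100% of the words were unique. The peak near Klrc1 lay outside this 1 kb, and 100% of its own words were unique in both mice. Of the words in the whole window, 53.6% were unique at Klrc1, 37.8% at Klrc2 and 52.0% at Klrc3. The labels and files do not say how reads with several placements were treated, and the part of repeated sequence in the lack of peaks was not tested.

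Klre1, Klri1 and Klri2 encode receptor chains known to pair as Klre1 with either Klri protein. Klre1 had 1 peak in its window in each mouse, and this was the Klrd1 promoter peak, 8.14 and 8.22 kb from its own nearest start site. Klri1 had no peak of either list in its window, and Klri2 had 1 peak of the longer list in each mouse. The words around the start sites of Klri1 and Klri2 were 97.3% and 98.4% unique.

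The Klrb1 genes had the richest surroundings. Klrb1c, which encodes the NK1.1 antigen, held 2 peaks of the shorter list in mouse 1 and 6 in mouse 2 within its window of 30.7 kb. Its mean density of 1.30 per 10 kb was the highest of the 26 genes, with 1.95 in mouse 2. In mouse 1 it was 0.651, below Klrb1f (1.27), Klrd1 (1.11) and Klrb1b (0.920). The 6 peaks of mouse 2 include chr6:128796181-128796620 and chr6:128796181-128796900, which overlap each other. The rank of Klrb1c above Klrb1f by mean density rests on counting both. Of the 32-base words in each of the 6 peaks, 50.5% to 100% were unique. In the 2 peaks of mouse 1, 85.0% and 58.1% were unique. The part of repeated sequence in these counts was not tested. Klrb1f, whose product binds Clec2i, held 4 peaks in each mouse and had a mean density of 1.27. Klrb1b, an inhibitory receptor of Clec2d, held 3 and 4 peaks and had a mean density of 1.07. These 3 genes exceeded the all-gene median in both mice. Klrb1a had 1 peak in mouse 1 and 2 in mouse 2. Klrb1 itself had none in either. Its promoter words were 93.4% unique and those of its window 79.7%, and the part of repeated sequence was not tested.

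At Klrb1f the promoter peak did not sit at the end of the gene. It overlapped an annotated internal start site, 3292 bp from the 5′ end of the gene in mouse 1 (chr6:129049193-129049419) and 3280 bp in mouse 2 (chr6:129049181-129049380). Signals of 1.03 in mouse 1 and 1.98 in mouse 2 put it above 42.4% and 59.8% of peaks. The lowest FDR was 1.24e-07 and 8.54e-12, with 2 and 4 footprints in the peak. The stretch is rich in GC, 66.0% with 12 CpG dinucleotides in 188 bases, whereas the median GC content within 1 kb of start sites was 37.4% over the Klr genes and 48.9% over all genes. With only the 5′ end of each gene counted as a start site, Klrb1f is no longer called and Klrd1 alone remains.

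The peaks around the other Klrb1 genes lay between the Klr genes rather than in them. By peak midpoints, the stretch between Klrb1 and Klrb1c held 7 peaks in mouse 1 and 9 in mouse 2, with a highest signal of 8.67 and 8.59. The stretch between Klrb1c and Klrb1b, 24.5 kb long, held 8 and 12, with a highest signal of 8.28 and 13.6. All of these lay in an intron of Gm44511, a protein-coding gene that overlaps both Klrb1c and Klrb1b. Unique words made up 58.1% to 99.0% of each of these peaks in mouse 1 and 16.3% to 100% in mouse 2. Between Klrb1 and Klrb1c they made up 50.7% to 100% and 48.2% to 100%. The part of repeated sequence in these counts was not tested. The 220 kb between Klrb1b and Klrb1f, where BC035044, Clec2i and Clec2g also lie, held 19 and 23, some of them within these genes. The bodies of Klrb1a, Klrb1, Klrb1c and Klrb1b held 0 peaks of either list in both mice. Over all 24 cluster Klr genes, bodies totalling 380 kb held 1 peak midpoint in each mouse, or 0.0263 per 10 kb. The 2260 kb between them, which include other protein-coding genes, held 64 and 74, or 0.283 and 0.328 per 10 kb. The bodies of all protein-coding genes together held 0.324 peaks per 10 kb in mouse 1 and 0.406 in mouse 2.

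The shared sites with the highest mean signal lay near Cd69 and between the Klrb1 genes. Signals of the 2 libraries have different medians, and the order by mean is weighted towards mouse 2. The first lay in an exon of the long non-coding RNA 2310001H17Rik, between Clec2d and Cd69, with a signal of 9.12 in mouse 1 and 16.3 in mouse 2 (12.7 ± 5.09, SD, n = 2). The next lay 14026 bp from the nearest start site of Klrb1c, within an intron of Gm44511, with 8.28 and 13.6 (11.0 ± 3.79). The third lay 24135 bp from Klrb1c with 8.67 and 8.59 (8.63 ± 0.0541). By rank within each library, the first was stronger than 94.5% of peaks in mouse 1 and 93.6% in mouse 2, the second than 93.5% and 92.0%, and the third than 94.0% and 87.3%. The fourth lay 9155 bp from a start site of Cd69, an early activation marker of T cells, with 9.80 and 6.19 (8.00 ± 2.55). The fifth lay 13360 bp from Klrb1b with 5.46 and 9.87 (7.67 ± 3.12). In mouse 1 alone the fourth was the strongest of the 5, and in mouse 2 alone it was the weakest. Among peaks of the shorter list that overlapped none of the other mouse, the strongest were weaker than these. They had 1.31 in mouse 1 (chr6:128807111-128807282) and 3.03 in mouse 2 (chr6:128798881-128799100), both between Klrb1c and Klrb1b. The one of mouse 2 overlapped a run of significant cutting in mouse 1, and the one of mouse 1 overlapped none in mouse 2.

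**Figure D3:**
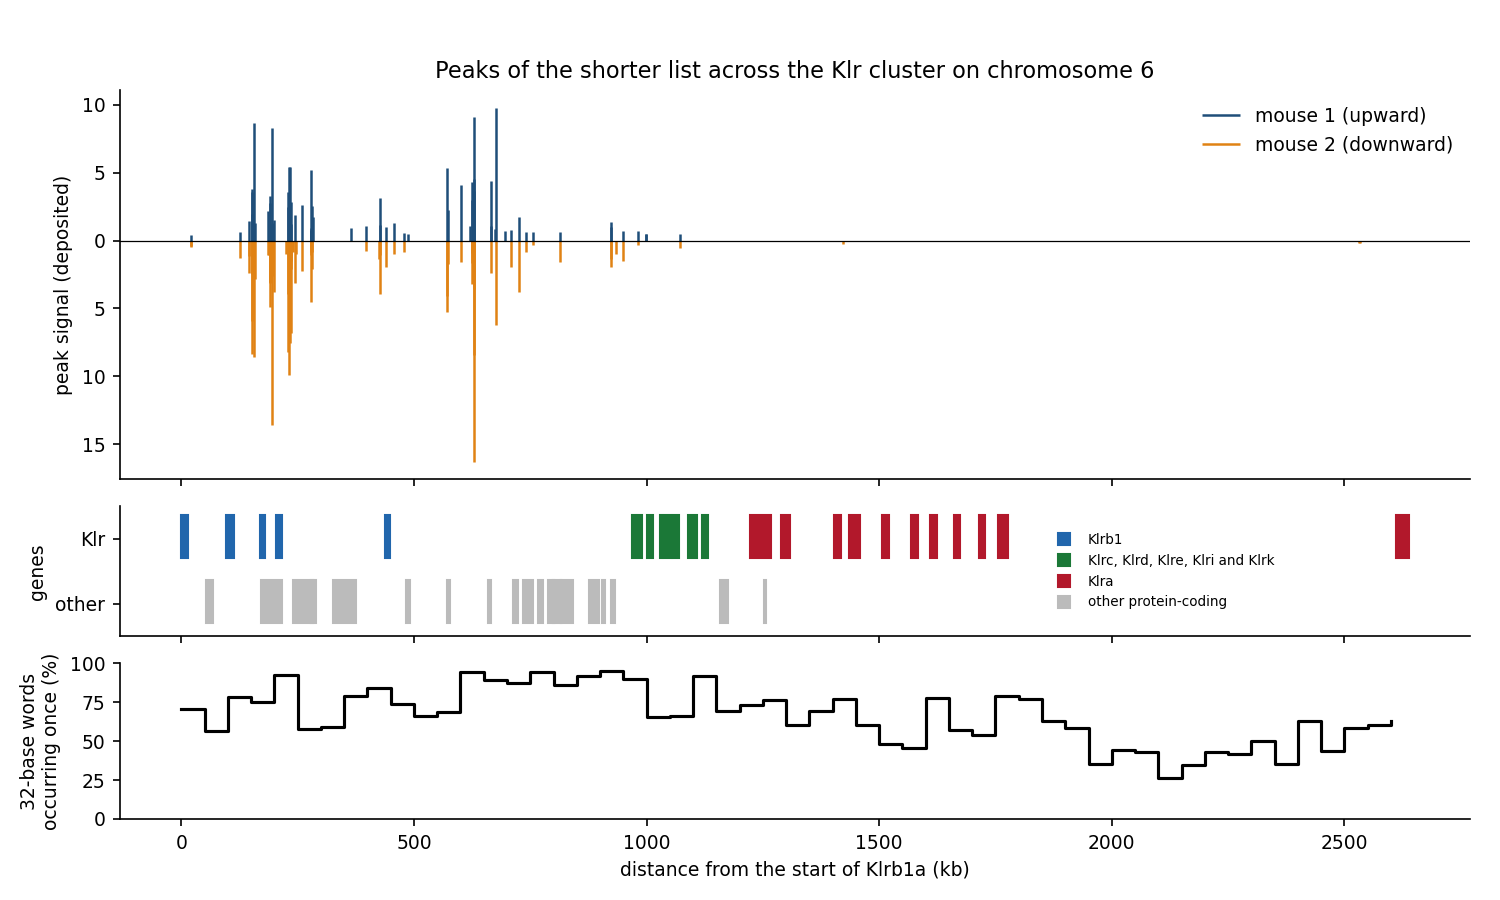
Signal of each peak of the shorter list across the cluster, upward for mouse 1 and downward for mouse 2, against distance from the start of Klrb1a in kb, with gene bodies below and the percentage of 32-base words that occur once in the genome, in bins of 50 kb. Peaks crowd around the Klrb1 genes and the genes between Klrb1f and Klre1, thin out over the Klrc to Klrk genes and are almost missing over the Klra genes.

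The Klra genes had almost no peaks. None of the 11 had a promoter peak of the shorter list, and only Klra6 had one in its window, in mouse 2 only, with a signal of 0.217. The longer list added single-mouse promoter peaks at 3 genes. Klra1, which encodes the inhibitory Ly49A, had one over its start in mouse 1 with a signal of 0.204 and a lowest FDR of 0.00832. In mouse 2 the cut-rate run there was 39 bases long with a lowest FDR of 0.0303, and no peak was listed. Klra5 (Ly49E) had one in mouse 1, 18 bp from its start, with a signal of 0.191. Klra17 (Ly49Q, known from plasmacytoid dendritic cells) had one in mouse 2, 709 bp away, with a signal of 0.186. No Klra gene thus had a promoter peak in both mice by either list.

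The activating receptors Klra4 (Ly49D) and Klra8 (Ly49H, which recognises a protein of mouse cytomegalovirus) had no promoter peak in either list. Neither did the inhibitory receptors Klra3 (Ly49C), Klra7 (Ly49G) and Klra9 (Ly49I), nor Klra2, Klra6 and Klra10. The windows of Klra2 and Klra8 held no peak of either list in either mouse. Klra4 had 0 and 2 peaks of the longer list in its window and Klra7 had 0 and 1, while Klra3 had 2 and 0 and Klra10 had 1 and 0. Both mice had longer-list peaks in the windows of Klra5, Klra6 and Klra9.

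The peaks that the longer list placed among the Klra genes did not overlap between the mice. From the start of Klra17 to the end of Klra1 there were 9 such peaks in mouse 1 and 8 in mouse 2, and 0 of either overlapped a peak of the other mouse. Over the whole genome, 70235 of 93107 longer-list peaks in mouse 1 and 70455 of 117361 in mouse 2 overlapped one of the other mouse. Their signals ran from 0.134 to 0.300 in mouse 1 and from 0.111 to 0.237 in mouse 2, below the longer-list medians of 0.747 and 0.725. In the stretch between Klra6 and Klra4, peaks of both mice lay close by without overlap, with 0 bases between 1 pair and 20 bases between another. Of all these peaks, only that of mouse 2 near Klra6 was also in the shorter list. Its shorter-list peak overlapped a run of significant cutting in mouse 1. For the other peaks, overlap with such runs was not counted.

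Klra sequence is repetitive. Around the Klra start sites a median of 77.0% of 32-base words was unique, from 44.1% at Klra8 to 90.4% at Klra6. Over the Klra segment as a whole 63.9% were unique. The 11 RefSeq Klra promoters of 300 bases had a median pairwise identity of 53.0%, with a lowest value of 44.9%, beside a median of 48.1% over the Klrb1 promoters. The most alike were those of Klra4 and Klra8 at 86.0%. The identity of unrelated promoters was not measured. Klra6 and Klra7 had the highest shares of the 11 genes around their starts, 90.4% and 90.1%, and no promoter peak. Both shares were below the median of 97.4% over protein-coding genes of chromosome 6. The windows of Klra6 and Klra7 were 77.6% and 74.2% unique. The part of repeated sequence in the low counts was not tested.

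Along the cluster, peak density was high on the Klrb1 side and low on the Klra side. The segment from Klrb1a to Klrb1f (448 kb) held 36 peaks in mouse 1 and 47 in mouse 2, or 0.803 and 1.05 per 10 kb. The following 520 kb to Klre1, which carry Clec2d, Cd69 and other lectin genes but no Klr gene, held 0.480 and 0.442 per 10 kb. The segment from Klre1 to Klri2 (163 kb) held 4 and 2 peaks, or 0.246 and 0.123 per 10 kb. The Klra segment (556 kb) held 0 and 1. Both mice gave the same order for these 4 segments. The cluster as a whole held 0.265 ± 0.0268 peaks per 10 kb (SD, n = 2), and the rest of chromosome 6 held 0.210 in mouse 1 and 0.258 in mouse 2. The value for the cluster was 0.246 in mouse 1 and 0.284 in mouse 2, so the cluster as a whole was no poorer in peaks than its chromosome in either mouse.

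**Figure D4:**
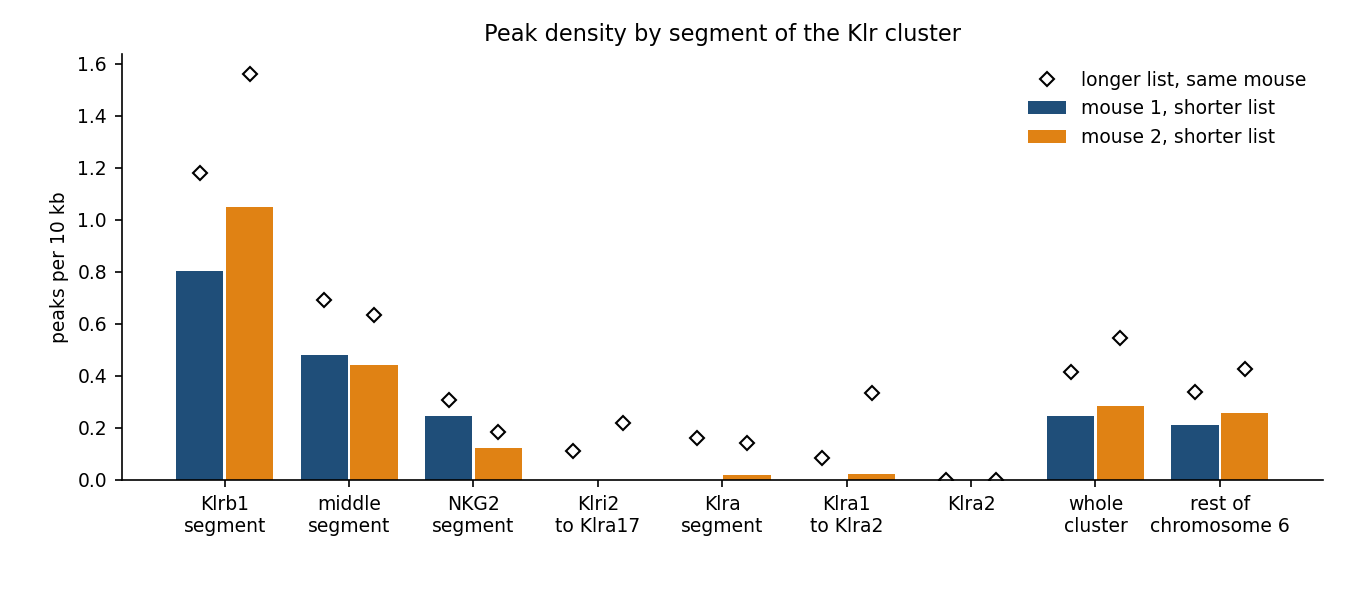
Peaks per 10 kb in each segment of the cluster and over the rest of chromosome 6, as bars per mouse for the shorter list and diamonds for the longer list. The Klrb1 segment reaches 0.803 and 1.05, and the Klra segment 0 and 0.0180.

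The other readouts followed the same order. Footprints numbered 4.15 and 4.95 per 10 kb in the Klrb1 segment, 0.615 and 0.431 in the segment from Klre1 to Klri2, and 0.126 and 0.108 in the Klra segment. Significant cutting covered 4.32% and 5.09% of the bases of the Klrb1 segment and 0.250% and 0.247% of the Klra segment. Unique words made up 72.4% of the Klrb1 segment, 84.7% of the middle segment, 75.6% of the segment from Klre1 to Klri2 and 63.9% of the Klra segment.

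With the shorter lists of both mice merged, 2 long stretches of the Klra region had no peak. One ran over 1110 kb (chr6:130031709-131140675) and held 7 Klr genes whole. It was longer than all but 15 of 4235 peak-free stretches on chromosome 6, whose median was 4.52 kb, and 52.2% of its words were unique. The other ran over 351 kb (chr6:129680701-130031598), held 5 Klr genes whole and was 75.1% unique. In the longer list the longest peak-free stretch of the cluster was 148 kb (chr6:130047954-130195780).

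The Klrg genes outside the cluster differed from each other. Klrg1, a receptor of cadherins that marks mature effector cells, had no promoter peak, no significant cutting near its start and a nearest peak 21.5 kb away in both mice. Its promoter words were 100% unique. Klrg2 had a promoter peak in mouse 2 (chr6:38636921-38637113) with a signal of 0.710 and a lowest FDR of 2.30e-07, and nothing in mouse 1, where no run of significant cutting lay near its start. Significant cutting covered 920 bases there in mouse 2 and 0 in mouse 1. With 58.1% GC within 1 kb of its start sites, Klrg2 differed in base composition from Klrg1 at 45.3%.

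Most peaks of the cluster were found in both mice. Of the cluster peaks, 54 of 65 (83.1%) in mouse 1 and 56 of 75 (74.7%) in mouse 2 overlapped a peak of the other mouse, beside 80.8% and 66.1% of all peaks. In 53 pairs of overlapping peaks, 34 were higher in mouse 2, with a median log2 ratio of mouse 2 to mouse 1 of 0.35 and an SD of 0.75. Over all 46907 such pairs of the genome, 81.5% were higher in mouse 2 and the median was 0.75 with an SD of 0.76. The Klrd1 peak, itself among the 53 cluster pairs, went the other way, from 0.696 to 0.343. Its log2 ratio of -1.02 was near the low end of those 53, which ran from -1.40 to 1.32. A footprint touched 61 of the cluster peaks in mouse 1 (93.8%, against 87.0% of all peaks) and 69 in mouse 2 (92.0%, against 89.7%).

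The counts for the gene lists that follow are to be read against the 56.6% of all protein-coding genes given above, and genes are ranked within a list by the mean density of both mice. Of 15 adaptors and proximal signalling genes, 13 had a promoter peak in both mice, with a median density of 1.91 peaks per 10 kb. Tyrobp and Hcst, the adaptors of activating Ly49 receptors and of NKG2D, each had 1 promoter peak and 7 window peaks in both mice, and they are close neighbours. The highest by mean density were Lat, with 4.27 peaks per 10 kb (2.33 in mouse 1 and 6.21 in mouse 2), and Lck, with 3.42 (2.65 and 4.19), both central to T-cell receptor signalling. Fcer1g and Sh2d1b1 lacked promoter peaks, and Sh2d1b1 had no peak in its window. The lowest with a peak was Plcg2, a phospholipase of immune receptors, with 9 and 10. The phosphatases Ptpn6, Ptpn11 and Inpp5d, which inhibitory receptors recruit, all had promoter peaks in both mice, and Ptpn6 had 15 and 18 window peaks.

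Of 15 ligand genes matched, 7 had a promoter peak in both mice. H2-T23, which encodes the Qa-1 ligand of CD94 and NKG2 receptors, had 9 and 12 window peaks, the highest density of the list, followed by H2-D1 with 3 and 11. Ulbp1, a ligand of NKG2D, had 3 and 1 promoter peaks, whereas H60c, Raet1d and Clec2h had no peak in their windows. Clec2i and Clec2d, the ligands of Klrb1f and Klrb1b, had promoter peaks in both mice and lie within the cluster itself. Of 12 other lectin genes of the cluster, 4 had promoter peaks in both mice, namely Clec2i, Clec2d, Cd69 and Clec12a. Clec2i (6 and 5 window peaks) and Cd69 (4 and 2) were the densest, and Clec1b, Clec2h and Olr1 had none.

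Further lists hold other genes of NK biology. Of 15 transcription factors of the NK lineage, 12 had a promoter peak in both mice, and none lacked a window peak. Tcf7, with 48 and 70 window peaks, and Id2, with 6 and 13, were the densest, and Zbtb16 and Tox, with 10 and 10 and with 14 and 15 peaks in long windows, the least dense. Many of these factors also act in developing T cells. Of 15 other NK receptors, 9 had a promoter peak in both mice, from Lag3 (22 and 17 window peaks) and Slamf6 (11 and 8) down to Havcr2 (2 and 0) and Ncr1 (0 and 0). Of 11 cytotoxic effector genes, 4 did. Nkg7 had 5 and 2 window peaks and Prf1, the gene of perforin, had 5 and 2, while Gzmb, Gzmc, Ifng, Xcl1 and Ccl5 had none.

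The start sites of Klr genes held some lymphoid motifs as letters. Motifs were searched on both strands from 250 bases before to 50 after the 5′ end of each gene. RUNX (TGTGGT) was found at 9 of 26 Klr genes and at 15.3% of all promoters, and TCF1 and LEF1 (CTTTGA) at 8 and at 15.4%. NFAT (TGGAAA) was found at 9, 6 of them Klra genes, and at 20.7% of all promoters. AP-1 (TGANTCA) was found at 5 (6.88% of all promoters), the lymphoid ETS core (AGGAAGT) at 4 (9.37%), the CTCF core (AGNNGGC) at 4 (62.3%). The motif of GATA factors (AGATAA) was found at 2 (10.1%) and the T-box motif (GGTGTGA) at 1, Klra1 (3.84%). The ETS motif (CGGAAG) was found at 0 of 26 and at 20.1% of all promoters. The E-box of E proteins (CAGCTG) was also found at 0 of 26, and at 15.4% of all promoters. Of the Klr genes that held these letters, only Klrd1 and Klrb1f had a promoter peak in both mice. The Klrb1f peak lies at an internal start site, 3292 bp from the 5′ end in mouse 1 and 3280 bp in mouse 2. The Klrb1f matches counted here are thus outside that peak.

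Of the sites printed above, that of Klrd1 held 1 RUNX match and 1 AP-1 match, which 15.9% and 4.26% of windows of the same length centred on mouse 1 peaks also held. The Klrb1f site held 1 RUNX match (17.8% of windows) and 1 E-box match (17.0%). Each of the strongest cluster sites held 1 CTCF core match that touched a footprint found in both mice, and such a match is common (51.6% and 66.8% of windows). The other motifs were not found in these stretches.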

How the data were processed

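DNase-seq was analysed in thymus of 2 mice, numbered as biological replicates by the labels, from animals with separate numbers, and called mouse 1 and mouse 2. The labels also give both the same donor record, so that n = 2 rests on the animal and replicate numbers. They form 1 group, so no test between conditions was possible and each mouse's value is given. The authors deposited, per library, 2 peak lists with a signal column, a list of runs with an FDR of the cut rate (a p-value type of measure, deposited only below 0.05) and a footprint list with a constant value, of which positions were used. Per the file headers and labels, the build is mm10 and peaks were derived from each library's own alignments. Aligner, callers, read totals and the scale of the signal were not given in the sources used here. The shorter peak list was used, and the longer one as an alternative. Peaks within a list that overlap each other were counted separately.

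Overlaps of at least 1 bp were counted with Python 3.11.15, numpy 2.4.6 and pandas 2.3.3 against GENCODE genes, within 1 kb of any start site and in the gene with 10 kb added at each end. The cluster joins Klr genes on chromosome 6 with gaps of at most 1 Mb. Uniqueness is the share of 32-base words that occur once on either strand of GRCm38. Promoter sequences came from RefSeq (GRCm38.p6), where 23 of 26 symbols matched, and were aligned with biopython 1.88. Counting was tested on simulated data, where 2000 of 2000 windows had the known count, and against bedtools 2.31.1. Values after ± are SD over 2 mice.

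The Klr genes, the 11 gene lists and the motifs were chosen with earlier results of these data known. Named are all Klr genes with a promoter peak of either list, the 3 densest, the 5 strongest shared cluster peaks with the strongest unshared of each mouse, and the 2 densest and 2 least dense genes of each list. Where genes of a list had no window peak, all of them are named. For the cell type marker lists only counts are given. Clec2f, Clec7a, Raet1a, Raet1b and Raet1c matched no protein-coding gene. Other genes named were chosen for their role after their values were seen.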

Additional observations from a re-analysis of the deposited data

How the results depend on the processing

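No paired analysis was possible because both libraries belong to 1 group. Of 37 alternatives over 7 results, 21 kept the value within 1.5 times the count or within 1 SD between the mice, and 16 moved it. With 2 mice, each always lies within 1 SD of their mean. For the cluster's density and sharing, the settings with either mouse alone could thus not move the value, though they count among the 21. Of the 2 Klr genes with a promoter peak in both mice, 0 remained with the stronger 50% of peaks and 1 with gene 5′ ends only. The 7 genes with a window peak (71.3% of all genes) became 13 with the longer list (77.0% of all genes). They became 3 with the stronger 50% of peaks, 2 with 0 kb flanks and 15 with 50 kb flanks. For these last settings and for 5′ ends only, the share of all genes was not counted. For either mouse alone it was counted only for promoter peaks. Whether all genes moved likewise was not tested. The median density over Klr genes, 0, became 0.298 with the longer list and 0.112 with 50 kb flanks. The cluster's density became 0.481 with the longer list and 0.150 with the stronger 50% of peaks. The mean shared percentage of cluster peaks, 78.9, became 67.1 with the longer list, 85.1 with the stronger 50% and 68.2 when 50% of a peak had to overlap. With either mouse alone, counts ran from 2 to 3 for promoter peaks, from 8 to 9 for window peaks, 5 in each for significant cutting (3 in both) and from 3 to 4 for footprints, the median density was 0 in each, the cluster's density ran from 0.246 to 0.284 and sharing from 74.7% to 83.1%. With 2 libraries, no read totals and repeated sequence in the Klra segment, an unlisted site is not shown to be closed.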

Other observations

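The mice differed in the 832 kb between Klra1 and Klra2, which hold no protein-coding gene. The longer list placed 7 peaks there in mouse 1 and 28 in mouse 2, and the shorter list 0 and 2. Significant cutting covered 816 bases (0.0980%) in mouse 1 and 6422 bases (0.772%) in mouse 2, with 1 and 16 footprints. Only 49.6% of 32-base words in this stretch occur once in the genome, the lowest share of the 7 segments. Read mapping and the CAST/EiJ genome were not tested as sources of this difference.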
